A study of Mus musculus with 46 samples.

Results

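The genes described here are the xenobiotic receptors CAR (Nr1i3), PXR (Nr1i2) and the aryl hydrocarbon receptor (Ahr), with the cytochrome P450 genes Cyp2b10, Cyp3a11, Cyp3a13, Cyp3a25 and Cyp2a5 and the hydrolase genes Ces1d and Ephx1. They were chosen by name and followed in liver over time after a single dose of carbon tetrachloride (CCl4), a solvent that injures hepatocytes once P450 enzymes have activated it. Of the 10 genes, 9 have a probe set that names that gene alone, and all 9 were among the 13239 genes tested. Cyp2a5 is read by 1 probe set that names Cyp2a4 as well, so no value is given for it.

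Liver RNA of male C57BL/6N mice aged 8 to 10 weeks was measured on 46 Affymetrix arrays. Control livers (5 arrays) came from untreated mice per the series' design text, although their labels carry the CCl4 treatment too. Treated mice received 1.6 g of CCl4 per kg in olive oil by intraperitoneal injection, and livers were taken 2 h and 8 h later (5 arrays each), on days 1, 2, 4, 6 and 8 (5 arrays each) and on day 16 (6 arrays). No group received the oil alone, so the injection and the vehicle enter every comparison with control and cannot be told apart from CCl4. The labels do not say that each array is a separate animal, so the p values measure the spread between arrays. Values are log2 expression, and a gene was called at an adjusted p under 0.05 (limma, Benjamini-Hochberg over all genes tested).

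CAR and PXR are nuclear receptors of the hepatocyte that respond to drugs, steroids and bile acids and bind DNA as heterodimers with RXR. Cyp2b10 is the standard target of CAR in mouse liver, and Cyp3a11 that of PXR. AhR is a ligand-activated factor of another family that pairs with Arnt and induces Cyp1 genes. The P450 enzymes oxidise foreign and endogenous lipophilic molecules, and the hydrolases cleave esters and epoxides.

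Arrays 1 and 2 at 1 d stood apart from the rest. Their median correlations with the other arrays of that group were 0.950 and 0.965, against 0.970 to 0.991 for the other 44 arrays, and results at 1 d that change without them are given both ways. Defining hepatocyte markers were high on every array, with a mean over 9 genes between 12.83 and 13.64. Of these 9, 3 were lower at 8 h, and 6 were lower and 1 higher at 1 d (median change -0.28). In these bulk samples, fewer cells of a type and less RNA per cell cannot be told apart. Pericentral hepatocyte markers fell together with the genes below, with 6 of 9 lower at 8 h, 8 of 9 at 1 d and 8 of 9 at 2 d. Their mean ranged from 8.99 to 9.56 in controls and from 7.25 to 7.92 at 1 d. Of 7 periportal markers 4 were lower at 8 h, 5 were lower and 1 higher at 1 d, and 3 were lower and 1 higher at 2 d. Of 6 monocyte-derived macrophage markers 2 were higher at 1 d and 3 at 2 d, with a mean of 5.96 to 6.03 in controls and 6.93 to 7.75 at 1 d. Shares of all genes tested were 24.2% lower at 8 h, 25.1% lower and 25% higher at 1 d, and 18.9% lower and 21.1% higher at 2 d. The hepatocyte count at 8 h and the macrophage count at 1 d were not far above these shares. The part of these marker shifts in the results below was not tested.

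Nr1i3, Nr1i2, Cyp3a11, Cyp3a25, Ces1d and Ephx1 fell within the first day, Cyp3a13 rose, and Ahr was higher at 2 h alone. At 2 h, 2 of 9 genes (Cyp3a25 and Ces1d) were lower and 1 (Ahr) was higher. Of all genes tested, 19.9% were lower and 6.41% higher at that time, so the lower count was near the share of all genes. At 8 h, 6 of 9 genes were lower and 1 was higher, where 24.2% of all genes were lower and 17.7% higher. At 1 d the count was again 6 lower and 1 higher, where 25.1% of all genes were lower and 25% higher. The median log2 change of the 9 genes at 1 d was -0.75, and that of all genes was -0.04. Without arrays 1 and 2 at 1 d, Nr1i3 lost its call at that time (-0.28, adjusted p = 0.19 by limma). The other genes called at 1 d kept their calls and directions.

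By 2 d the count was down to 3 of 9 genes, all lower (Nr1i2, Cyp3a11 and Cyp3a25), where 18.9% of all genes were lower and 21.1% higher. At 4 d only Nr1i3 was called among the 9, as lower, where 2.21% of all genes were lower and 4.74% higher. None of the 9 was called at 6 d, 8 d or 16 d with limma, where 0.0227%, 0.144% and 1.51% of all genes were. Of the 9 genes, 0, 2 and 4 had an unadjusted p under 0.05 at those 3 times, where 6.90%, 9.96% and 18.2% of all genes had.

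**Figure D1:**
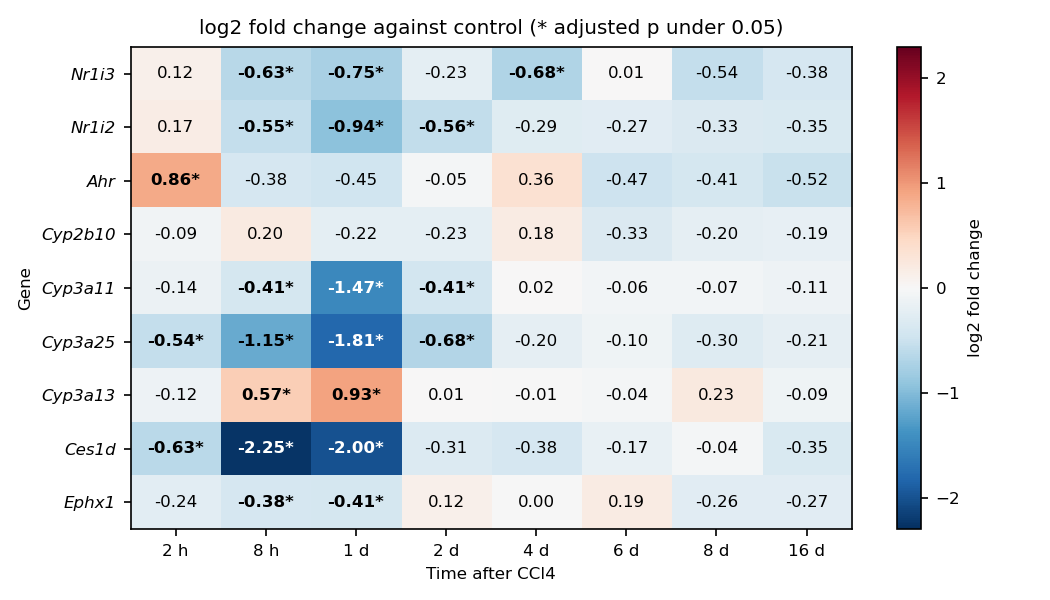
Log2 difference from the control mean for the 9 genes (rows) at the 8 times after CCl4 (columns), as the mean of 5 arrays (6 at 16 d), with an asterisk where the adjusted p was under 0.05. The lowest values are those of Ces1d at 8 h (-2.25) and 1 d (-2.0), and Cyp3a13 is the row called higher at 8 h (0.57) and 1 d (0.93).

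Among the receptors, Nr1i2 was lower at 8 h, 1 d and 2 d. Its control arrays read 7.30, 7.26, 7.35, 7.60 and 7.78, the 8 h arrays 6.88, 6.85, 6.78, 7.20 and 6.79, and the 1 d arrays 5.89, 6.96, 6.34, 6.59 and 6.82. All 8 h and 1 d arrays lay below all controls. The change was -0.55 ± 0.14 (SE, adjusted p = 0.000829 by limma) at 8 h and -0.94 ± 0.14 (adjusted p = 2.29e-07) at 1 d, which is 1.92-fold lower. At 2 d the arrays read 6.93, 7.01, 7.37, 6.50 and 6.68, of which 4 of 5 were below every control, and the change was -0.56 ± 0.14 (adjusted p = 0.00113). From 4 d on, Nr1i2 lay between -0.27 and -0.35 from the control mean with no call. At 16 d all 6 arrays lay below every control (-0.35 ± 0.13, SE, adjusted p = 0.142 by limma). With array weights the changes at 4 d and 16 d were called (adjusted p = 0.0340 and 0.0362 by limma). That setting called 2071 and 1010 of all genes at those times, against 920 and 200 in the main fit. A second probe set for Nr1i2 gave -0.50, -0.84 and -0.60 at 8 h, 1 d and 2 d, and it was also called lower at 8 d (-0.59 ± 0.13, adjusted p = 0.0257 by limma over all probe sets).

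Nr1i3 was lower at 8 h, at 1 d and at 4 d, and at 2 d it lay at -0.23 from control with no call. Its control arrays read 7.73, 8.19, 8.34, 8.79 and 8.29, and the 8 h arrays 7.73, 7.88, 7.47, 7.72 and 7.37. Control array 1 was as low as the 8 h arrays, so the groups overlapped. The change at 8 h was -0.63 ± 0.20 (SE, adjusted p = 0.00927 by limma), or 1.55-fold lower. At 1 d the arrays spread widely, at 6.46, 7.18, 7.93, 7.94 and 8.07, for a change of -0.75 ± 0.20 (adjusted p = 0.00191 by limma). Arrays 1 and 2 were the lowest there. Without array 1 the change was -0.48 (adjusted p = 0.0224 by limma), and without both it was -0.28 (adjusted p = 0.19). With only control and 1 d arrays in the fit the adjusted p was 0.0645.

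The 4 d arrays of Nr1i3 read 7.75, 7.39, 7.48, 7.65 and 7.64, which is -0.68 ± 0.20 from control (adjusted p = 0.0267 by limma). This call was lost without 4 d array 2 or 3 or control array 3, 4 or 5, with an adjusted p between 0.0513 and 0.123. At 6 d the arrays read 8.59, 8.23, 8.18, 8.22 and 8.16, all above the 4 d arrays, and the step of 0.69 from 4 d to 6 d was called (adjusted p = 0.018 by limma), though not without 6 d array 1 (adjusted p = 0.0623). For the difference between Nr1i3 and Nr1i2 on the same array, no time passed the test against control, and the groups overlapped at every time. With adjustment over 4 pairs and 8 times (32 tests), no change could pass by itself even without overlap. The missing call is thus no evidence that both receptors moved alike. At 4 d, where the difference moved farthest, it changed by -0.40 (exact permutation test, two-sided p = 0.0556, adjusted p = 0.178).

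Ahr went the other way first. Its control arrays read 8.30, 8.13, 8.66, 8.60 and 8.02, and the 2 h arrays 9.18, 9.04, 10.07, 8.72 and 9.02, so that the groups did not overlap. The change was 0.86 ± 0.25 (SE, adjusted p = 0.00926 by limma), or 1.82-fold higher, and without 2 h array 3 it was 0.65 (adjusted p = 0.0596). As the mean of both Ahr probe sets it was 0.53. The step from 2 h to 8 h was -1.25 (adjusted p = 0.000116 by limma), which took Ahr to -0.38 ± 0.25 from control at 8 h, with no call then or later. A second, flatter Ahr probe set gave 0.20 ± 0.09 at 2 h (adjusted p = 0.101 by limma).

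By group mean, Nr1i3 was highest at 2 h (8.38), 6 d (8.28) and in controls (8.27), and lowest at 8 h (7.63), 4 d (7.58) and 1 d (7.52). Nr1i2 was highest at 2 h (7.62) and in controls (7.46) and lowest at 1 d (6.52). Ahr was highest at 2 h (9.21) and 4 d (8.70) and lowest at 16 d (7.82). For all 3 receptors, each group's arrays overlapped with those of the next group in this order.

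**Figure D2:**
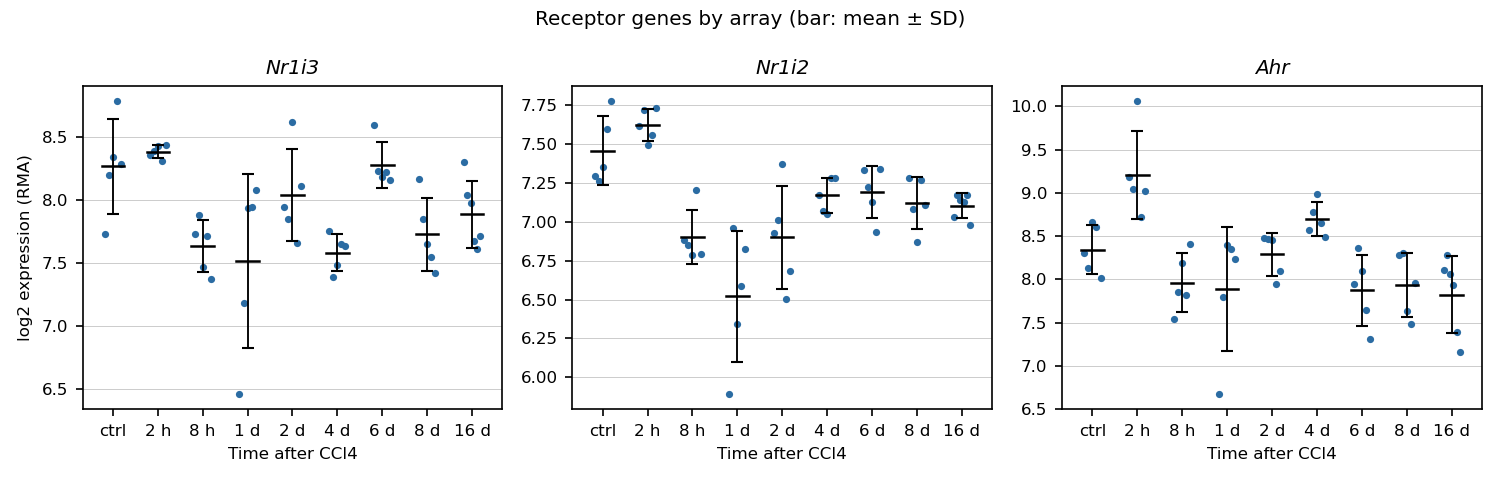
Log2 expression of Nr1i3, Nr1i2 and Ahr (y axis, a separate scale per panel) by time after CCl4 (x axis). Points are arrays and bars are the mean and SD. Nr1i2 is lowest at 1 d (mean 6.52), Nr1i3 has low groups at 8 h, 1 d and 4 d with 6 d back at 8.28, and Ahr peaks at 2 h (mean 9.21).

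Over the 9 group means, the genes whose course was most like that of Nr1i2 among 2560 genes were Vegfa, the endothelial growth factor (Pearson r = 0.957), Nr1h4, the bile acid receptor FXR (r = 0.945), and Sntg2 (r = 0.931). Those nearest Nr1i3 were Rnf186 (r = 0.824), Cyp2c68 (r = 0.788) and Vnn1, the liver pantetheinase (r = 0.780). Those nearest Ahr were Tent5c (r = 0.936), Mrtfb (r = 0.923) and Zfp36, an mRNA decay factor (r = 0.824). These coefficients describe 9 means that share the same arrays, and they carry no test. Among the genes followed here, Nr1i2 ran with Cyp3a11 (r = 0.799), Cyp3a25 (r = 0.758) and Nr1i3 (r = 0.748) and against Cyp3a13 (r = -0.794). For Cyp2b10 the coefficient was -0.339 with Nr1i3 and 0.149 with Nr1i2.

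The Cyp3a genes lie on chromosome 5. The 250 bases before the start of Cyp3a11 and Cyp3a25, which fell, and of Cyp3a13, which rose, are shown to set these promoters side by side. They are from RefSeq on GRCm38.p6, at chr5:145879855-145880104, chr5:146009618-146009867 and chr5:137921620-137921869, all on the minus strand and printed 5′ to 3′ along the gene. Capitals mark matches on either strand to the motifs searched: a nuclear receptor half-site (AGGTCA), a variant of that half-site found at PXR elements (AGTTCA), the core to which AhR binds (GCGTG), the TATA box (TATAAA), the CCAAT box by its own name, a half-site of HNF1 (GTTAAT) and a site of HNF4 (CAAAGTCCA).
Cyp3a11: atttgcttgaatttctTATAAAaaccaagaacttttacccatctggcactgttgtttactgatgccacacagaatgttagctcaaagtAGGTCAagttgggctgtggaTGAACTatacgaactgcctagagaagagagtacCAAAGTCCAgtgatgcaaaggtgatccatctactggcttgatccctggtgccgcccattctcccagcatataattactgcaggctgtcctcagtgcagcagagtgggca
Cyp3a25: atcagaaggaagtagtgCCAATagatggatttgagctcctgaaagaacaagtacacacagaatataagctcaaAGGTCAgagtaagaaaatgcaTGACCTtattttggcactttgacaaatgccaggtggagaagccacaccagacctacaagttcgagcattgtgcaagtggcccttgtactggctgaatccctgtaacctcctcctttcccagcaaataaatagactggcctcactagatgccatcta
Cyp3a13: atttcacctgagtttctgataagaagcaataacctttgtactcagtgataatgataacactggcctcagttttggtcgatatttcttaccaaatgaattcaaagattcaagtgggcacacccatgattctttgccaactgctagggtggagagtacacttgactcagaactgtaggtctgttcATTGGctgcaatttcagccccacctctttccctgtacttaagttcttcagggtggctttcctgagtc

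Cyp3a11 holds AGGTCA at bases -162 to -157 before the start, AGTTCA on the other strand at -142 to -137, and the HNF4 site at -109 to -101. Cyp3a25 holds AGGTCA on each strand, at -177 to -172 and at -156 to -151. Farther from the start, Cyp3a11 has a TATA box match at -234 to -229 and Cyp3a25 a CCAAT match at -233 to -229. Cyp3a13 has a CCAAT match at -67 to -63 and none of the other motifs. None of these matches overlap. Over 32851 mouse promoter windows of the same length, 14.0% held the first half-site, 11.8% its variant, 33.8% the CCAAT box, 28.2% the AhR core, 12.4% the TATA box, 6.43% the HNF1 half-site and 0.384% the HNF4 site. Aligned end to end, Cyp3a11 shared 58.0% of its 250 bases with Cyp3a13 and 57.2% with Cyp3a25. Cyp3a13 and Cyp3a25 shared 54.0%. Pairs of these genes' windows that were not both of Cyp3a shared from 47.6% (Cyp2b10 with Ephx1) to 55.2% (Cyp2b10 with Cyp3a11). Promoter windows were found for 8 of the 10 genes, and among these AGGTCA was in those of Cyp3a11 and Cyp3a25, and GCGTG in that of Cyp2b10. A match describes letters and is no evidence of binding.

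Cyp3a11, the main PXR-inducible P450 of mouse liver, fell and was back within 4 d. Its 5 control arrays lay between 13.96 and 14.01, close to the highest value on any array (14.9), and whether the signal was near its ceiling there was not tested. The 1 d arrays read 12.19, 13.32, 12.43, 12.18 and 12.49, all below every control, and array 2 was well above the other four. The change at 1 d was -1.47 ± 0.11 (SE, adjusted p = 6.6e-14 by limma), or 2.78-fold lower. Without arrays 1 and 2 at 1 d it was -1.63.

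Smaller falls of Cyp3a11 flanked that time. The 8 h arrays read 13.61, 13.42, 13.40, 13.75 and 13.77 and the 2 d arrays 13.78, 13.58, 13.55, 13.54 and 13.47, again all below the controls. The change was -0.41 ± 0.11 at both times (adjusted p = 0.00325 and 0.00346 by limma), and with cyclic loess scaling the 8 h value was -0.19 (adjusted p = 0.176). At 4 d the arrays read 14.06, 13.82, 14.01, 14.10 and 14.06, or 0.02 from control.

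Cyp3a25, a P450 of the same subfamily, was lower from 2 h to 2 d. The controls read 12.94, 12.86, 12.65, 12.85 and 13.11, the 8 h arrays 11.58, 11.43, 11.48, 12.31 and 11.86, and the 1 d arrays 10.06, 11.59, 10.85, 11.29 and 11.56. No array at 8 h or 1 d reached the lowest control. The change was -1.15 ± 0.20 (SE, adjusted p = 8.51e-06 by limma) at 8 h and -1.81 ± 0.20 (adjusted p = 7.99e-10) at 1 d, or 3.51-fold lower. At 2 d it was -0.68 ± 0.20 (adjusted p = 0.00706 by limma), with arrays of 12.51, 12.05, 11.95, 12.31 and 12.20.

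At 2 h, Cyp3a25 was already at -0.54 ± 0.20 (SE, adjusted p = 0.0434 by limma), with 4 of 5 arrays below all controls. This call was lost in 8 of 10 fits without 1 array, those without 2 h array 2, 3, 4 or 5 or control array 1, 2, 4 or 5 (adjusted p from 0.0542 to 0.108), and in 5 of 12 other settings, where it moved as far as -0.33 (adjusted p = 0.287, cyclic loess scaling).

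Cyp3a13, a P450 of liver and gut, was higher at 8 h and 1 d, when Cyp3a11 and Cyp3a25 were lower. At 2 d, when both were still lower, it was at 0.01 from control. Controls were at 9.54, 9.47, 9.52, 9.47 and 10.02, the 8 h arrays 9.70, 9.75, 10.41, 10.67 and 10.31, and the 1 d arrays 10.01, 10.35, 10.85, 10.70 and 10.73. Control array 5 stood above the other controls, and 3 of 5 arrays at 8 h and 4 of 5 at 1 d exceeded it. The change was 0.57 ± 0.19 (SE, adjusted p = 0.0143 by limma) at 8 h and 0.93 ± 0.19 (adjusted p = 8.5e-05) at 1 d, or 1.90-fold higher. The 8 h call was lost without 8 h array 4 (0.44, adjusted p = 0.0697) and with the Gapdh 3′ minus 5′ signal, a measure of RNA quality, as a covariate (0.42, adjusted p = 0.145). That signal read 0.27 to 0.43 in controls, -0.06 to 0.30 at 2 h, 0.05 to 0.26 at 8 h and 0.09 to 0.31 at 1 d. RNA quality is thus partly confounded with the early comparisons with control, for all genes. At 2 d the arrays were back at 9.91, 9.52, 9.96, 9.56 and 9.13, and the step from 1 d was -0.91 (adjusted p = 0.000195 by limma).

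The difference between Cyp3a13 and Cyp3a11 on the same array was compared between times and control. It moved by 0.97 at 8 h and by 2.40 at 1 d, with no overlap between the groups. The difference between Cyp3a25 and Cyp3a11 moved by -0.75 at 8 h, also with no overlap, and by -0.34 at 1 d, where the groups overlapped. For the 3 changes without overlap the exact permutation test gave the smallest two-sided p that 5 arrays against 5 allow (0.00794), which was 0.0508 after adjustment over 4 pairs and 8 times (32 tests) and so missed the threshold. No change could pass that adjustment by itself, since the smallest p passes only when enough tests reach it together.

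**Figure D3:**
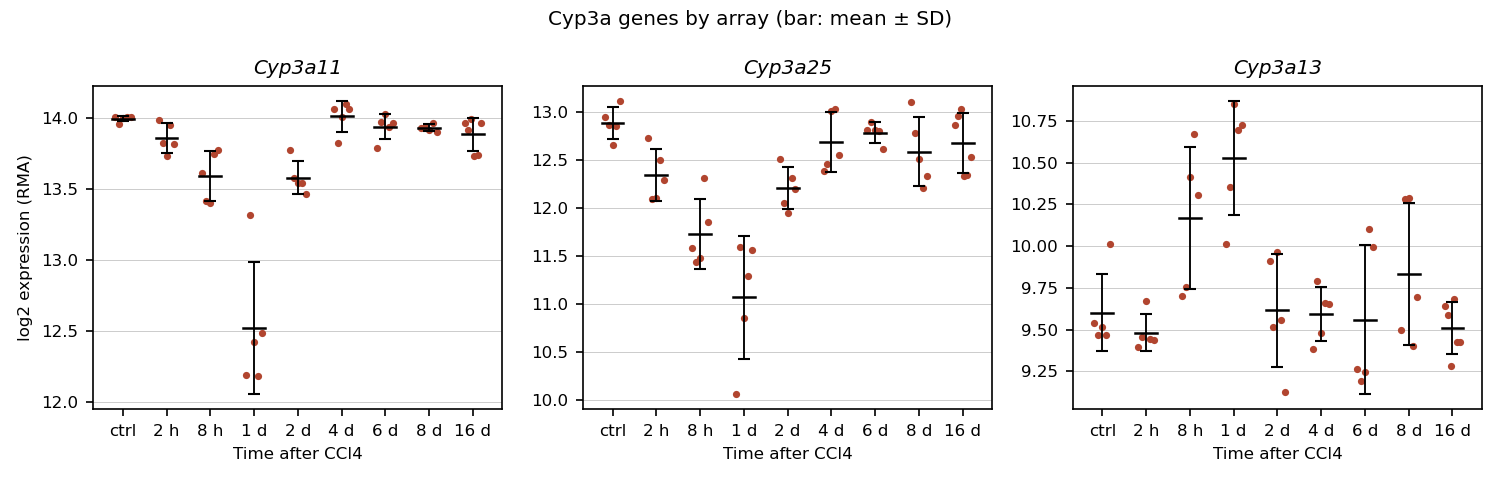
Log2 expression of Cyp3a11, Cyp3a25 and Cyp3a13 (y axis, a separate scale per panel) by time after CCl4 (x axis). Points are arrays and bars are the mean and SD. Cyp3a11 (mean 12.52) and Cyp3a25 (mean 11.07) are lowest at 1 d, where Cyp3a13 is highest (mean 10.53).

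Cyp2b10, the P450 most used as a readout of CAR, was called at no time against control. The probe set with the highest mean read 7.21, 6.77, 6.72, 6.93 and 7.62 in controls, 7.25, 6.87, 6.64, 8.35 and 7.14 at 8 h, and 6.86, 6.56, 7.05, 6.89 and 6.81 at 1 d. Its changes lay between -0.33 ± 0.20 (SE, at 6 d) and 0.20 ± 0.20 (at 8 h). Control array 5 and 8 h array 4 were the highest of their groups on all 3 Cyp2b10 probe sets.

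The other 2 Cyp2b10 probe sets varied more between arrays of a group, and both have a suffix that marks probes shared between transcripts. Their means in controls (5.49 and 5.40) and at 6 d (4.31 and 4.59) lay below 5.56, the level used to choose genes for testing. The first of them read 5.95, 4.57, 4.42, 5.12 and 7.40 in controls (SD 1.22) and 6.52, 5.44, 5.47, 8.05 and 6.08 at 8 h (SD 1.07). At 4 d it read 6.10, 5.16, 6.65, 6.73 and 6.65, and at 6 d 4.58, 4.34, 4.09, 4.30 and 4.25 (SD 0.18), so the 4 d and 6 d arrays did not overlap. Against control it was at 0.82 ± 0.46 at 8 h (adjusted p = 0.158 by limma) and at -1.18 ± 0.46 at 6 d (adjusted p = 0.518). For the mean of all 3 probe sets the step from 4 d to 6 d was -1.28 ± 0.34 (adjusted p = 0.0108 by limma), and for the highest probe set alone it was -0.51 ± 0.20 (adjusted p = 0.102).

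**Figure D4:**
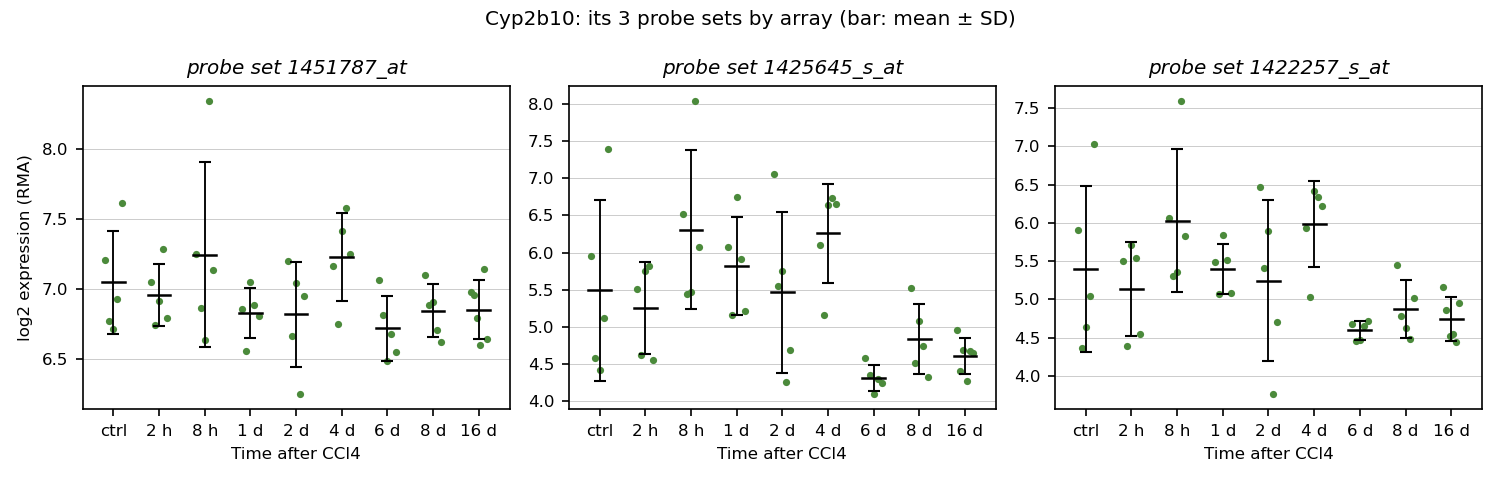
Log2 values of the 3 Cyp2b10 probe sets (panels, a separate y scale each) by time after CCl4 (x axis). Points are arrays and bars are the mean and SD. Single high arrays appear in the control and 8 h groups on all 3 panels, and the 6 d arrays of the middle probe set lie between 4.09 and 4.58, below all 4 d arrays.

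Ces1d, a carboxylesterase that also hydrolyses triacylglycerol, had the lowest log2 change of the 9 genes. Control arrays were at 10.68, 11.49, 10.96, 11.56 and 11.29, the 8 h arrays 8.79, 9.16, 9.0, 8.97 and 8.77, and the 1 d arrays 9.29, 9.16, 9.51, 9.40 and 8.63. All 8 h and 1 d arrays lay below all controls. The change was -2.25 ± 0.18 (SE, adjusted p = 2.31e-13 by limma) at 8 h, or 4.77-fold lower, and -2.0 ± 0.18 (adjusted p = 3.28e-12) at 1 d. The other 2 Ces1d probe sets gave -1.65 and -2.24 at 8 h. The former has a suffix that marks probes able to read near-identical genes too, so its share from other Ces1 genes is uncertain.

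At 2 h the Ces1d arrays read 10.58, 10.60, 10.59, 10.39 and 10.69, or -0.63 ± 0.18 from control (adjusted p = 0.00801 by limma), and with cyclic loess scaling the change was -0.43 (adjusted p = 0.0671). The 2 d arrays read 11.16, 11.30, 11.03, 10.88 and 10.05, and the step from 1 d to 2 d was 1.69 (adjusted p = 7.05e-10 by limma).

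Ephx1, the microsomal epoxide hydrolase, was lower at 8 h and 1 d. Its control arrays read 10.87, 11.00, 10.76, 11.19 and 11.13, the 8 h arrays 10.68, 10.53, 10.35, 10.95 and 10.53, and the 1 d arrays 11.00, 10.88, 10.49, 10.31 and 10.22. The groups overlapped at both times. The change was -0.38 ± 0.14 (SE, adjusted p = 0.0221 by limma) at 8 h and -0.41 ± 0.14 (adjusted p = 0.0121) at 1 d. The 8 h call was lost with cyclic loess scaling (-0.24, adjusted p = 0.126) and without 8 h array 3 or control array 4 or 5 (adjusted p from 0.0554 to 0.0798), and the 1 d call without 1 d array 5 (adjusted p = 0.0564) or with only both groups in the fit (0.0512). Without arrays 1 and 2 the 1 d change was -0.65. The difference between Ephx1 and Ces1d moved by 1.87 at 8 h and by 1.59 at 1 d with no overlap (exact permutation test, two-sided p = 0.00794, adjusted p = 0.0508 at both times).

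From time to time, most movement fell into 2 steps. From 2 h to 8 h, 5 of 9 genes fell (Nr1i2, Nr1i3, Ahr, Cyp3a25 and Ces1d) and Cyp3a13 rose, where 15.4% of all genes fell and 20.4% rose. From 8 h to 1 d, Nr1i2, Cyp3a11 and Cyp3a25 fell further, where 10.9% of all genes fell and 20.8% rose. From 1 d to 2 d, 6 of 9 genes rose (Nr1i2, Nr1i3, Cyp3a11, Cyp3a25, Ces1d and Ephx1) and Cyp3a13 fell, where 17.4% of all genes rose and 15% fell.

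Of the 19 called steps of these genes, 12 held with each array left out in turn. The fall of Cyp3a25 from 2 h to 8 h was lost without 2 h array 1 (adjusted p = 0.0602) or 8 h array 3 (0.0508). From 8 h to 1 d, Nr1i2 lost its call without 8 h array 4 (adjusted p = 0.101) or 1 d array 1 (-0.23, adjusted p = 0.179) or 3 (0.0729), and Cyp3a25 without 8 h array 4 (0.0572) or 1 d array 1 (-0.41, adjusted p = 0.0867). From 1 d to 2 d, the rise of Nr1i2 was lost without 1 d array 1 (0.22, adjusted p = 0.191) or 3 (0.0796) or 2 d array 2 (0.0644) or 3 (0.149). The rise of Nr1i3 in that step was lost without 1 d array 1 (0.25, adjusted p = 0.299) or 2 (0.11) or 2 d array 1, 3 or 5 (0.0517, 0.177 and 0.0732), and without both 1 d arrays that stood apart it was 0.05. Without both, Nr1i2 also lost its calls from 8 h to 1 d (-0.32, adjusted p = 0.0659 by limma) and from 1 d to 2 d (0.32, 0.0625). Cyp3a25 then lost its call from 8 h to 1 d (-0.50, adjusted p = 0.0525 by limma), and Cyp3a13 was called higher in that step (0.59, 0.029).

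Later steps held few calls. Cyp3a11 rose by 0.43 from 2 d to 4 d, where 13.4% of all genes rose and 17.9% fell. From 4 d to 6 d, Nr1i3 rose and Ahr fell by 0.83, where 3.51% of all genes rose and 7.3% fell. The fall of Ahr was lost without 4 d array 2 or 3 or 6 d array 4 or 5 (adjusted p from 0.0516 to 0.106), and with the mean of both probe sets it was -0.42 (adjusted p = 0.0669). None of the 9 genes was called from 6 d to 8 d or from 8 d to 16 d with limma (2 and 0 at an unadjusted p under 0.05), where 0.00755% and 0% of all genes were (949 and 1404 genes at an unadjusted p under 0.05).

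Lists of other genes of drug metabolism were counted at the same times. Of all genes tested, 24.2% were lower and 17.7% higher at 8 h, 25.1% and 25% at 1 d, and 18.9% and 21.1% at 2 d. Of 15 other P450 genes of the Cyp1, Cyp2a, Cyp2b, Cyp2c and Cyp3a families tested (28 listed), 9 were lower at 8 h, 12 at 1 d and 11 at 2 d, and none was higher at those times. Their median change at 1 d was -1.34. Cyp2c37 was 11.4-fold lower at 1 d (-3.51 ± 0.51, SE, adjusted p = 2.69e-07 by limma), Cyp2c50 7.43-fold lower and Cyp1a2 7.02-fold lower. Glul and Cyp2e1, pericentral reference genes, were at -2.79 ± 0.18 and -1.65 ± 0.27 at 1 d.

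Of 26 conjugating enzyme genes tested (30 listed), 18 were lower and 2 higher at 8 h, and 21 were lower and 1 higher at 1 d. Sult2a8, a bile acid sulfotransferase, was 10.5-fold lower at 1 d and Ugt2b1, a glucuronosyltransferase, 5.78-fold lower. Sult1e1, the oestrogen sulfotransferase, moved the other way and was 19.6-fold higher at 8 h (4.29 ± 0.19, SE, adjusted p = 5.14e-21 by limma). Of 13 other carboxylesterase and hydrolase genes tested (17 listed), 11 were lower at 8 h and 12 at 1 d, among them Ces1g (8.43-fold), Ces1e (5.61-fold) and Ces1f (4.52-fold).

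Of 8 transporter genes tested (10 listed), 6 were lower and 1 higher at both 8 h and 1 d. The uptake carriers Slco1b2 and Slco1a1 were at -1.85 and -1.80 at 1 d, with Slco1b2 at -1.06 without arrays 1 and 2. The efflux pump Abcc4 was 8.66-fold higher at 1 d. Of 10 genes for haem synthesis and electron donors tested (12 listed), 7 were lower at 8 h and 6 at 1 d, and at 2 d 2 were lower and 2 higher. Cyb5b, a cytochrome b5, was 3.52-fold lower at 8 h and Alad, of haem synthesis, 2.15-fold lower. At 2 h 5 of these 10 genes were lower and 1 higher, where 19.9% of all genes were lower and 6.41% higher. The higher one was Alas1, the rate-limiting enzyme of haem synthesis, at 3.14-fold (1.65, adjusted p = 0.00597 by limma). Without control array 1 it was at 0.98 (adjusted p = 0.0508).

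Of 13 receptor partners and co-regulators tested (18 listed), 4 were lower and 2 higher at 2 h, where 19.9% of all genes were lower. At 1 d 6 were lower and 1 higher, and at 2 d 5 were lower and 1 higher. At 8 h 7 were lower and 1 higher. That 1 was Hsp90aa1, a chaperone that holds the unliganded receptors in the cytosol, at 5.19-fold higher. Nr0b2, the corepressor SHP, was 4.77-fold lower at 8 h (-2.25). Egfr, whose signalling restrains CAR, was at -1.56 at 1 d, at -0.90 (adjusted p = 0.0519 by limma) without arrays 1 and 2, and at -0.48 as the mean of its probe sets. Of 6 AhR target genes tested (9 listed), 1 was higher at 2 h, where 6.41% of all genes were, and the counts were 2 higher and 1 lower at 1 d and 2 higher and 2 lower at 2 d. The gene higher at 2 h was Tiparp, an AhR repressor (2.27-fold, adjusted p = 8.84e-06 by limma). Nqo1, a quinone reductase, was at 0.84 at 1 d (adjusted p = 0.0229 by limma). Without 1 d array 1 it was at 0.28 (adjusted p = 0.272), and without arrays 1 and 2 at -0.02; leaving out 1 d array 2 or control array 2 or 3 also lost the call (0.0559, 0.055 and 0.0519). Cyp1a2, also on this list, was lower at 1 d.

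None of these lists had a gene called at 6 d or 8 d, and at 16 d the sole call was 1 lower gene among the hydrolases. Without arrays 1 and 2 at 1 d the P450, conjugating, transporter and hydrolase lists had 12, 22, 6 and 11 genes lower at that time, and 1 AhR target was higher.

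**Figure D5:**
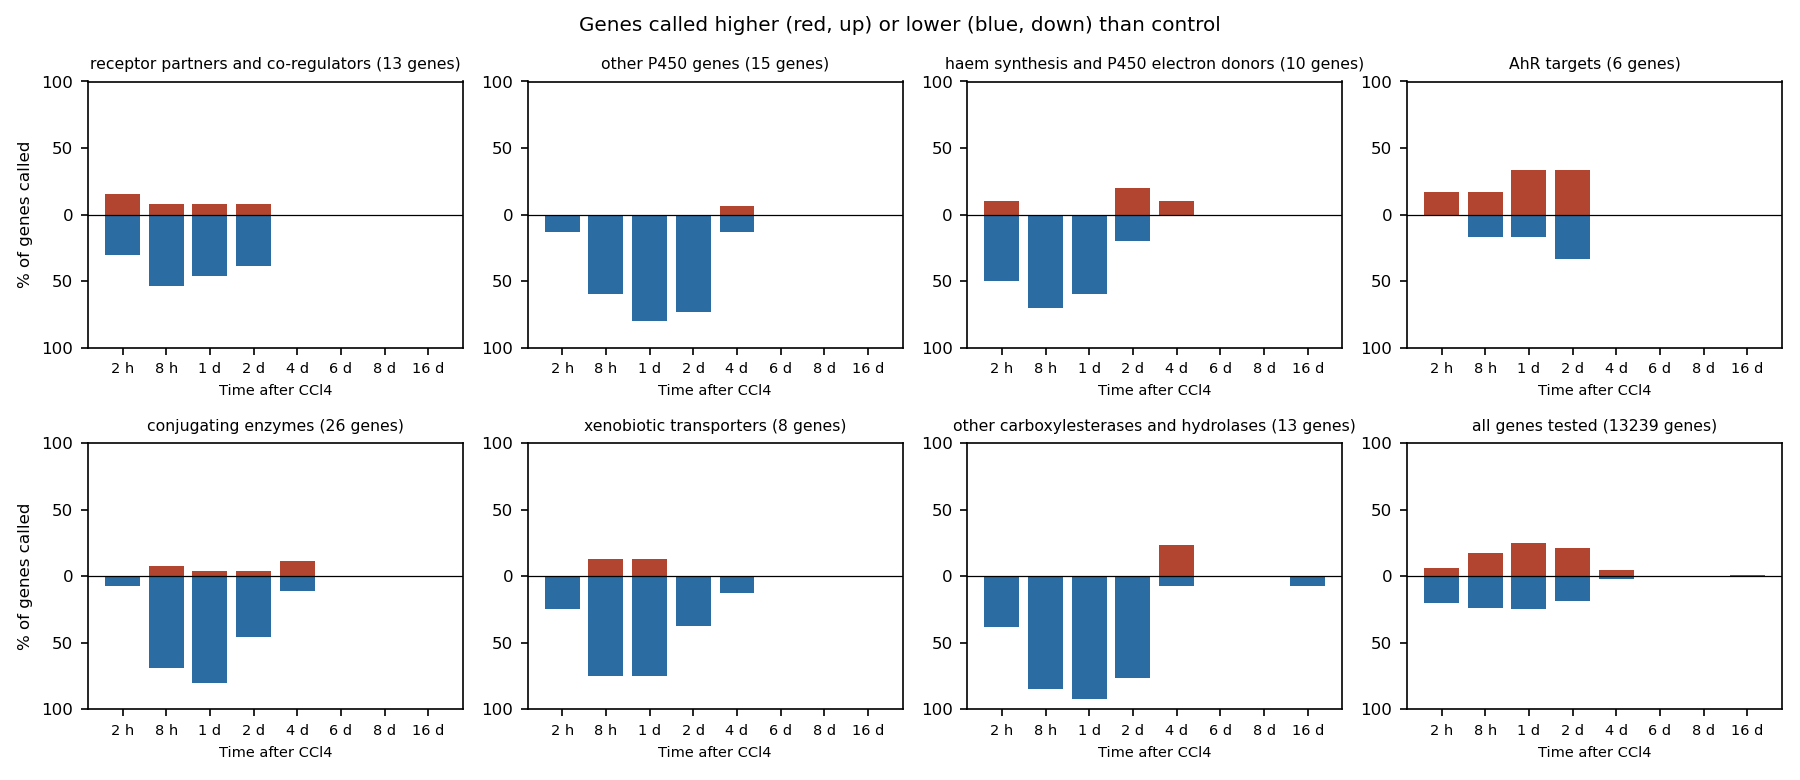
Share of the tested genes of 7 lists and of all genes called higher (red, upward) or lower (blue, downward) than control (y axis, percent) at each time after CCl4 (x axis). The P450, conjugating enzyme and hydrolase panels reach their largest lower share at 1 d, the transporters have 6 of 8 lower at both 8 h and 1 d, and of the 6 AhR targets 2 are higher and 1 lower at 1 d and 2 are higher and 2 lower at 2 d.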

How the data were processed

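The authors deposited log2 values of Affymetrix mouse genome arrays, computed by RMA in oligo 1.52.0, per the submitters' processing notes. RMA corrects background, quantile-normalizes arrays and summarises probes, so shifts common to most genes are removed, and the number of arrays limits the precision. No batch or scan date is given in the sources used here, and the number of columns not used was 0.

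Of 45101 probe sets, 34945 named 1 gene, 932 several and 9160 none, and 64 were controls. Symbols were updated by Entrez ID (34741 matched). Each of 18193 genes was read from its probe set with the highest mean, and 13239 were tested, those above the table's median (5.56) on 5 arrays or more. One limma fit (3.58.1, R 4.3.3, lmFit and eBayes, 37 residual degrees of freedom) held all 46 arrays and gave 8 contrasts with control and 7 steps, with Benjamini-Hochberg adjustment within a contrast. The code was tested on simulated data. Gene pairs were compared with exact permutation tests (two-sided), and figures used Python 3.11.15 and matplotlib 3.10.9.

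Genes and lists were chosen with earlier results of these data known. Named besides the genes themselves were the 3 called genes with the largest change in each list, each at its time of largest change, Glul and Cyp2e1, and the 3 genes most correlated with each receptor over the 9 group means among those whose means span at least 1. Alternatives were other scalings, filters, probe set rules, samples, variance models, array weights, a Gapdh covariate, the replicate number as a block, and leaving out single arrays. Leaving out arrays 1 and 2 at 1 d, and reading each probe set by itself, were chosen after seeing the data. The comparison of Cyp2a5 with Cyp2b10 was not made.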

Additional observations from a re-analysis of the deposited data

Results flagged for a closer look

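In 8 of 81 sets of arrays (1 gene in 1 group) a single array lay apart by Dixon's criterion, and chance alone gives about 1 in 20. These were Nr1i2 at 8 h array 4 (7.20), Nr1i3 at 6 d array 1 (8.59), Cyp3a11 at control array 2 (13.96) and 1 d array 2 (13.32), Cyp3a13 at control array 5 (10.02) and 2 h array 3 (9.67), and Ces1d at 4 d array 4 (10.09) and 8 d array 4 (11.41). The Cyp3a11 controls span so little that array 2 was picked out although it lay within 0.05 of the others.

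Neighbouring times differed in 19 called steps (log2, later minus earlier, limma, adjusted over all genes). From 2 h to 8 h the steps were -0.72 for Nr1i2, -0.75 for Nr1i3, -1.25 for Ahr, 0.69 for Cyp3a13, -0.61 for Cyp3a25 and -1.63 for Ces1d. From 8 h to 1 d they were -0.38 for Nr1i2, -1.07 for Cyp3a11 and -0.66 for Cyp3a25. From 1 d to 2 d they were 0.38 for Nr1i2, 0.52 for Nr1i3, 1.06 for Cyp3a11, -0.91 for Cyp3a13, 1.13 for Cyp3a25, 1.69 for Ces1d and 0.53 for Ephx1. Later, Cyp3a11 moved by 0.43 from 2 d to 4 d, and from 4 d to 6 d Nr1i3 moved by 0.69 and Ahr by -0.83. No cause of any of these was tested.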

How the results depend on the processing

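Against control, 12 of the 21 calls held under all alternatives run, and no called value changed sign under any of them. Genes called at 4 d, 6 d, 8 d and 16 d (920, 3, 19 and 200) varied with the setting. With only both groups in the fit they were 1622, 0 and 11 at 4 d, 6 d and 8 d. With array weights they were 2071, 14, 90 and 1010. Without arrays 1 and 2 at 1 d they were 7, 44 and 490 at 6 d, 8 d and 16 d. With the mean of all probe sets they were 1 at 6 d and 99 at 16 d, and with cyclic loess 91 at 16 d. Of the 9 genes followed, the count from 2 d to 4 d (1) was 2 with quantile normalization, cyclic loess or array weights, 4 with only both groups and 3 without arrays 1 and 2 at 1 d. The count at 2 h (3) was 1 with cyclic loess, that from 8 h to 1 d (3) was 1 with only both groups, and those at 4 d (1) and 16 d (0) were 2 and 1 with array weights. Leaving out 1 array gave 1 to 12, 6 to 42 and 8 to 331 genes at 6 d, 8 d and 16 d, and 1 to 3 of the followed genes at 2 h, 0 to 1 at 4 d, 1 to 4 from 8 h to 1 d, 1 to 2 from 2 d to 4 d and 1 to 2 from 4 d to 6 d. With quantile normalization the 3 pairs with Cyp3a11 or Ces1d differed from control at 2 times each (adjusted p = 0.0423, exact permutation test) and otherwise at 0. The share of calls that were higher at 2 h was 24.3%, against 19.1% when array medians were made equal, 37.8% with quantile normalization and 47.6% with cyclic loess. At 16 d it was 27.5%, against 14.7%, 53.9% and 47.3% in that order, and with quantile normalization it went from 52.7% to 41.6% at 2 d and from 47.4% to 58.8% at 8 d. The causes were not tested.

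With the replicate number as a block (replicate block) 50 genes were called at 16 d, and Cyp3a25 at 2 h (adjusted p = 0.0569 by limma) and the step of Nr1i3 from 1 d to 2 d (0.0559) lost their calls. In the median over all genes, arrays that share a number were no more alike (r = 0.00932 over 180 pairs of deviations from group means). Other pairs had a median r of -0.00402 (760 pairs). Such medians cannot exclude effects tied to the number on some arrays or genes. The Gapdh 3′ minus 5′ signal fell from array 1 to array 5 at 2 h (0.30 to -0.06) and at 8 h (0.26 to 0.05). At 1 d it followed no such order. A paired sign-flip test of the gene pairs cannot reach the threshold with 5 pairs and is not given.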
